A study of Mus musculus with 4 samples.

Results

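Cell-cycle kinases, cyclins, kinase inhibitors, Cdc genes, centromere proteins and the Nek and Plk kinases were followed in m6A peak lists of mouse embryonic stem cells. Genes were taken by symbol, from those that begin with Cdk, Cdkn, Ccn, Cenp, Nek or Plk and are completed by a number or letter of the family, and from the Cdc symbols with a number. Fzr1 was added singly and Ccne1 was left out. This gave 67 of the 9949 genes with a peak, and 256 of the 46417 peaks. The series holds 2 libraries of Mettl5-/- cells (knockout 1 and 2) and 2 libraries of wild-type cells (wild type 1 and 2), all of strain C57BL/6N, in which fragmented total RNA was precipitated with an antibody against N6-methyladenosine (m6A) and sequenced. Mettl5 is an RNA methyltransferase whose known target is 18S ribosomal RNA. The source label of each library is embryonic stem cells, although the protocols also describe a differentiation. The labels give no clone, culture or passage for any library, so the 2 libraries of a genotype may be technical repeats.

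Progress through the cell cycle is driven by cyclin-dependent kinases, which are active only when bound to a cyclin and are held back by small inhibitor proteins. Cyclins are destroyed on schedule by the anaphase-promoting complex, a ubiquitin ligase that Cdc20 activates in mitosis and Fzr1 (Cdh1) afterwards. Centromere proteins build the platform on which chromosomes attach to the spindle, and Nek and Plk kinases act on centrosomes and the mitotic spindle. Embryonic stem cells have a short first gap phase and divide rapidly. m6A on a messenger RNA can shorten its life and is typically found near stop codons and in long exons.

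Presence means that the authors listed a peak of the gene in that library. Strength is the percentile of a peak's p-value among the peaks of that library, where 100 is strongest, and a gene takes the value of its best peak. Fold enrichment is the authors' own value per peak. Percentiles rank lists of different lengths (12699 and 10821 peaks in the knockout, 11696 and 11201 in wild type), so they place a gene within a library and do not measure a change between libraries. The read depth and the RNA level of each gene are unknown here, so fewer cells with a transcript, fewer transcripts per cell and less m6A per transcript cannot be told apart. The genotype labels could not be checked here, since Mettl5 had no peak in any of the 4 libraries. Of 8 stem cell markers, 6 (Esrrb, Fgf4, Klf4, Pou5f1, Sox2 and Tdgf1) had a peak in all libraries, while Nanog and Zfp42 had none. Of 4 neural genes, Nes and Sox1 had peaks in all libraries, Pax6 in knockout 1 and wild type 1, and Tubb3 in knockout 2 alone. Of 4 mesoderm and endoderm genes, Foxa2 had peaks in all libraries, while T, Gata4 and Sox17 had none. Of 4 fibroblast genes, Vim had peaks in all libraries, while Col1a1, Col1a2 and Thy1 had none. The part of these genes in the results was not tested.

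Cell-cycle and centromere genes were listed less evenly across the libraries than genes at large. A peak in all 4 libraries was found for 31 of the 67 (46.3%), against 57.1% of all genes with a peak. Both knockout libraries and neither wild-type library listed 2 of them, Cdc26 and Cdk9, or 2.99% against a background of 2.27%. Both wild-type libraries and neither knockout library listed 4, Fzr1, Cenpj, Nek2 and Cenpv, or 5.97% against a background of 1.56%. Fzr1 was added to the set singly, and members were chosen with earlier results of these data known. The wild-type-only share is therefore no independent support for a genotype pattern. A further 10 were present in 3 libraries (background 13.3%), 5 in a single library of each genotype (background 8.68%) and 15 in 1 library (background 17.0%). Of these 15, 10 were in wild type 1 alone (14.9% of members, background 3.94%) and 5 in knockout 1 alone (7.46%, background 7.92%), with none in knockout 2 alone (background 2.55%) or wild type 2 alone (background 2.60%). Of the 10 present in 3 libraries, 6 lacked knockout 2 (Ccne2, Cdc25c, Cdk18, Cdk5r1, Cenph and Cenpn, background 4.98%) and 2 lacked knockout 1 (Ccna2 and Nek4, background 2.67%). Cenpt lacked wild type 1 (background 2.54%) and Cdk12 lacked wild type 2 (background 3.16%). These counts are descriptions of 4 lists and carry no test. With 1 library left out, the rule for the genotype counts asks for less, so a count can only stay or rise. The knockout-only count was 2 without knockout 1, 7 without knockout 2, 3 without wild type 1 and 3 without wild type 2. The wild-type-only count was 10 without knockout 1, 6 without knockout 2, 4 without wild type 1 and 14 without wild type 2. The counts of 7 and 14 take in the 5 genes of knockout 1 alone and the 10 of wild type 1 alone. They do not show how far the genotype counts depend on 1 library.

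**Figure D1:**
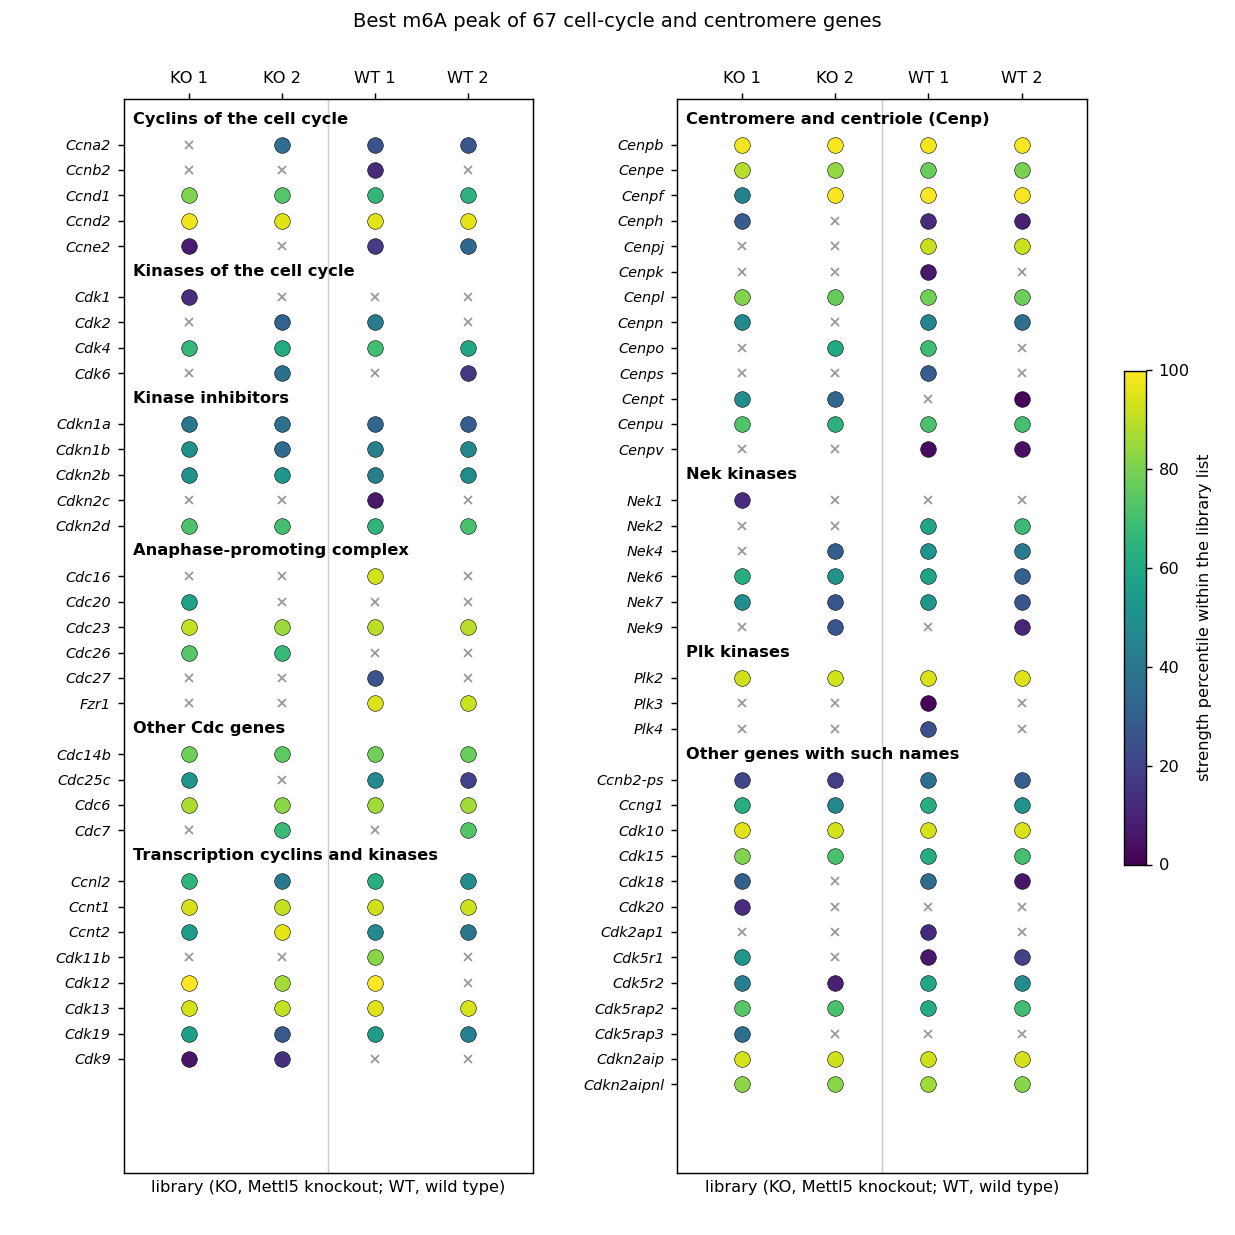
Strength percentile of the best peak of each of the 67 genes (rows, by role) in the 2 Mettl5 knockout (KO) and 2 wild-type (WT) libraries (columns); a cross marks a gene with no listed peak. In all, 31 genes are filled in every column, and Cdc16, Cdk11b, Cdk12, Cenpj and Fzr1 have crosses beside percentiles above 80.

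**Figure D2:**
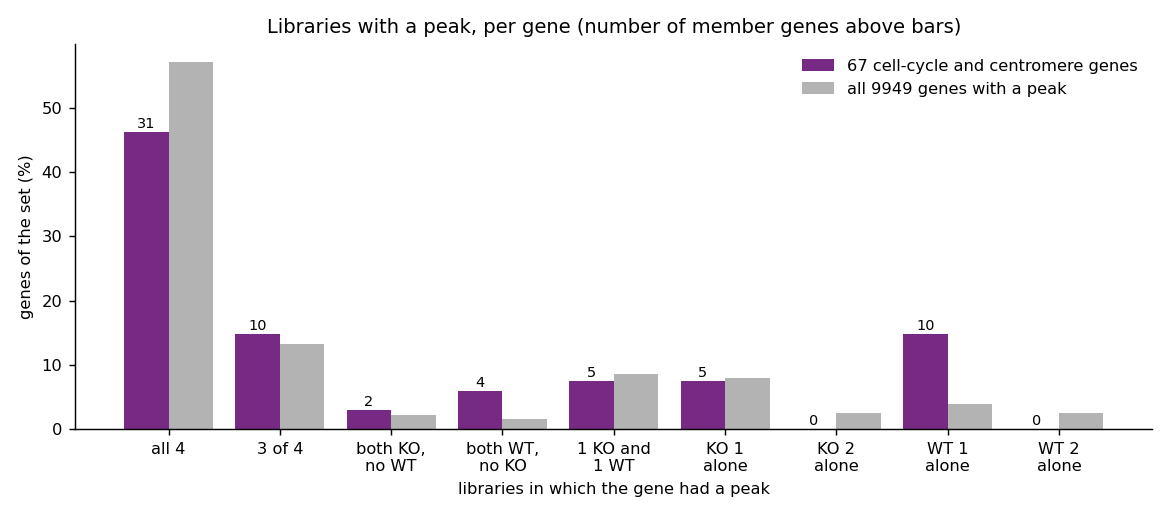
Share of the 67 genes (purple) and of all 9949 genes with a peak (grey), in percent, by the libraries in which a gene had a peak; numbers above the purple bars count genes. The purple bar is lower than the grey for all 4 libraries (46.3% against 57.1%) and higher for wild type 1 alone (14.9% against 3.94%).

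Fewer of these genes were listed in each knockout library than in each wild-type library. Knockout 1 listed 46 and knockout 2 listed 42 of the 67, against 56 in wild type 1 and 47 in wild type 2. The means were 44.0 ± 2.83 genes in the knockout and 51.5 ± 6.36 in wild type (SD, n = 2 each), without overlap, at a two-sided exact permutation p = 0.333, which is the smallest that 2 against 2 libraries allow. As a share of the genes of a list this was 0.552% and 0.577% in the knockout, and 0.721% and 0.626% in wild type. The difference, knockout minus wild type, was -7.50 genes over the 4 libraries. Leaving out wild type 1 gave -3.00, and leaving out wild type 2 gave -12.0. It was -1 in the stronger 50% of each list, where the numbers overlapped, with 30 and 27 genes in the knockout and 34 and 25 in wild type. Most of the difference thus came from genes whose best peak ranked in the weaker part of a list.

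Among the cyclins of the cell cycle, Ccnd1 and Ccnd2, D-type cyclins that start the cycle with Cdk4 and Cdk6, carried peaks in every library. Ccnd2 had a single peak in its 3' untranslated region at folds of 648 and 143 in knockout 1 and 2, and 169 and 272 in wild type 1 and 2. It ranked between percentiles 95.0 and 97.4, so knockout 1 gave the highest fold and all 4 libraries placed it near the top. Ccnd1 also peaked in its 3' untranslated region, with best peaks at percentiles 80.8 and 73.1 in knockout 1 and 2, and 65.9 and 64.3 in wild type 1 and 2. A second Ccnd1 site in coding sequence, positions 144932510 to 144932750 of chromosome 7 (mm10), was listed in both knockout libraries, at folds of 6.34 and 5.44, and in neither wild-type library. The later cyclins ranked lower by percentile, though not always by fold, since the best Ccnd1 peaks had folds of 9.59 and 10.4 in the knockout, and 10.1 and 7.84 in wild type. Ccna2, the cyclin of S phase and G2, had folds of 6.72 in knockout 2, and 7.59 and 6.41 in wild type 1 and 2, with none in knockout 1. Ccne2, a partner of Cdk2 at the entry into S phase, had 8.81 in knockout 1, and 10.8 and 18.5 in wild type. The mitotic cyclin Ccnb2 was listed once, in wild type 1, at percentile 12.3. Its pseudogene Ccnb2-ps had a weak peak in all libraries, with folds of 11.2 and 12.0 in the knockout, and 17.4 and 16.3 in wild type.

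The kinases that these cyclins activate had few and mostly weak peaks. Cdk4 was present in all libraries, at folds of 30.4 and 38.1 in the knockout, and 34.7 and 27.1 in wild type, and the genotypes overlapped. The Cdk4 peak of each library lay over a Tspan31 peak on the opposite strand, listed in at least 1 library, so the gene behind this signal is uncertain. Cdk2, which drives S phase, was listed in knockout 2 and wild type 1 at folds of 2.80 and 4.52. Cdk6 was listed in knockout 2 and wild type 2 at folds of 23.9 and 11.1. Cdk1, the kinase of mitosis, appeared in knockout 1 alone, at fold 9.61 and percentile 12.6. In that list 428 peaks, among them those of Cdk20 and Nek1, share exactly this fold and a log10 p-value of -2.26, so these 3 genes have no order.

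Of the 5 kinase inhibitors, 4 were present in all libraries (background 57.1%), again with no test. Cdkn1a (p21), a target of p53, had folds of 4.81 and 6.91 in the knockout, and 7.95 and 11.1 in wild type. By percentile the order was reversed, at 39.1 and 36.8 in the knockout, and 32.7 and 29.2 in wild type. The best Cdkn1a peak lay in coding sequence in each library. Cdkn1b (p27) peaked in its 3' untranslated region at folds of 28.0 and 12.7 in the knockout, and 14.5 and 25.9 in wild type. Cdkn2b (p15), which blocks Cdk4 and Cdk6, had folds of 26.4 and 55.3 in the knockout, and 23.9 and 41.4 in wild type. Cdkn2d (p19), an inhibitor of the same kinases, was the strongest of the group, between percentiles 65.0 and 72.2. A further Cdkn2d site in the 3' untranslated region was listed in both knockout libraries, at folds of 4.61 and 5.08, and in neither wild-type library. Cdkn2c (p18) was listed in wild type 1 alone, at percentile 6.25.

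Of the 6 members of the anaphase-promoting complex, 1 had a peak in all libraries, where 57.1% of all genes with a peak did, a count too small to characterise the group. That gene was Cdc23, a scaffold subunit, whose best peak ranked at percentiles 91.2 and 85.1 in knockout 1 and 2, and 89.7 and 89.1 in wild type 1 and 2. Its peaks lie over peaks of Kif20a on the opposite strand, which leaves the gene uncertain. Cdc26, a small subunit that stabilises the complex, had a 3' untranslated peak in the knockout libraries, at folds of 123 and 125 and percentiles 73.2 and 67, and none in wild type. It lay at positions 62393918 to 62394576 of chromosome 4 (mm10, gene ENSMUSG00000066149). Fzr1, the activator used after mitosis, had the reverse pattern. It had no peak in either knockout library, and folds of 1360 and 329 at percentiles 94.3 and 92.1 in wild type 1 and 2. The Fzr1 peaks spanned 3 coding exon blocks between positions 81366910 and 81368175 of chromosome 10 (mm10, gene ENSMUSG00000020235), and no peak of another gene lay there in any library. Cdc20, the mitotic activator, had a 5' untranslated peak in knockout 1 alone, at fold 42.5 and percentile 57.6. The scaffold subunits Cdc16 and Cdc27 were listed in wild type 1 alone, Cdc16 over 5 coding exon blocks at fold 160 and percentile 93.0, and Cdc27 at fold 13 and percentile 26.4.

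Other Cdc genes act in replication and as phosphatases. Cdc6, which loads the replicative helicase, had folds of 86.2 and 89.1 in the knockout, and 436 and 189 in wild type, at percentiles between 82.8 and 87.6. Both wild-type folds stood above both knockout folds, while the ranks overlapped. A second Cdc6 site in its 3' untranslated region was listed in both knockout libraries, at folds of 15.2 and 15.7, and in neither wild-type library. Cdc14b, a phosphatase, was among the steadiest genes, with the same exonic span of 571 bp in all 4 lists and folds of 154 and 218 in the knockout, and 215 and 277 in wild type. Cdc7, the kinase that fires replication origins, was listed in knockout 2 and wild type 2, at folds of 67.2 and 101. Cdc25c, the phosphatase that activates Cdk1, had a fold of 9.81 in knockout 1, and 17.4 and 5.18 in wild type.

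Cyclins and kinases that act on RNA polymerase II rather than on the cell cycle held some of the strongest peaks. Ccnt1, the cyclin partner of Cdk9 in the elongation factor P-TEFb, had the most peaks of any member, 15, with best peaks at folds of 608 and 86.0 in knockout 1 and 2, and 691 and 810 in wild type 1 and 2. The long coding peak behind the high values was not listed in knockout 2, whose best peak lay in the 3' untranslated region. Its 5' untranslated peaks lie over an opposite-strand gene. Ccnt2 showed the widest spread in all 4 libraries, with percentiles of 55.2 and 96.0 in knockout 1 and 2, and 47.4 and 39.6 in wild type. The strong value came from a peak over 2 exon blocks that was listed in knockout 2 alone, at fold 211. Cdk9 itself was weak and listed in the knockout libraries alone, at folds of 6.41 and 6.35 and percentiles of 5.61 and 13.8. Cdk13, which phosphorylates the polymerase, had folds of 1080 and 270 in the knockout, and 677 and 1040 in wild type. Cdk12, its close relative, had folds of 1660 and 139 in knockout 1 and 2, and 260 in wild type 1, with none in wild type 2. Its peaks did not share a place, since those of knockout 1 and wild type 1 covered 3 exon blocks at the start of the gene, and that of knockout 2 a distant coding exon. Cdk11b was listed in wild type 1 alone, over 8 exon blocks, at percentile 82.4 with a fold of only 3.06. Cdk19, a kinase of the Mediator complex, and Ccnl2, a cyclin of splicing, were present in all libraries at folds of 15.7 to 45.5 and 28.4 to 70.1.

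Peaks that reach the start of a transcript allowed the sequence under them to be read. RefSeq start windows, 250 bases before to 50 after a start (GRCm38.p6, the assembly of mm10), were at hand for 57 of the 67 genes, and peaks covered part of the window in 11. The letters GGAC, the core of the m6A consensus, were searched on the transcribed strand in the covered part. They were found in 3 genes, Cdk13, Cdk12 and Cenpt, and are given here in capitals within 30 bases because these are the sites where a peak and a readable sequence meet. The letters stand in 65.6% of all 32851 windows and in 18.9% of their 50 bases after the start (66.1% and 17.4% for GTCC, the same letters on the other strand), so a match is no sign of a modified base. For Cdk13 the match lies 17 and again 26 bases into the transcript, under a 5' untranslated peak of all 4 libraries. That peak had folds of 82.1 and 101 in the knockout, and 167 and 99.1 in wild type. For Cdk12 it lies at position -195 from the RefSeq start, under the peak of knockout 1 and wild type 1 that reaches upstream of that start. For Cenpt it lies 31 bases in, under a peak of knockout 2 alone at fold 11.2.
Cdk13, chr13:17805065-17805094, minus strand: cgccgccgccacaGGACgacgtGGACgcgc
Cdk12, chr11:98203097-98203126, plus strand: ggccgtgaggggcGGACtcgagcagctccc
Cenpt, chr8:105851962-105851991, minus strand: tcctgaacatggcGGACctcagcttttctg

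The Cenp genes, named for centromere proteins, ranged from near the top of the lists to near the bottom. Of 13, 5 were present in all libraries (background 57.1%), 2 in both wild-type libraries alone (background 1.56%) and none in both knockout libraries alone (background 2.27%). Knockout 1 and 2 listed 8 and 7 of them, and wild type 1 and 2 listed 12 and 10, where of all 9949 genes the knockout lists held 8338 and 7281 and the wild-type lists 7771 and 7509. Cenpb, which binds a repeat motif of centromeric DNA, had the highest percentile of the members when averaged over the libraries, with a peak of 2009 to 2428 bp in coding sequence. Its folds were 530 and 864 in the knockout, and 962 and 1090 in wild type. Cenpf, a large protein of the outer kinetochore, had a peak over 6 or 7 exon blocks at folds of 140 in knockout 2, and 238 and 115 in wild type 1 and 2. That peak was not listed in knockout 1, whose best Cenpf peak was a 3' untranslated one at percentile 44.6. Cenpe, a kinesin that moves chromosomes to the spindle equator, had folds of 517 and 106 in the knockout, and 62.2 and 38.5 in wild type, in the same part of its 3' untranslated region. Both knockout folds stood above both wild-type folds, but each is a value of its own list and was not tested.

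Cenpj, a protein of centrioles rather than of centromeres, was listed in wild type alone, at folds of 614 and 484 and percentiles of 91.5 and 91.9. Its peaks covered 2 or 3 coding exon blocks at positions 56551937 to 56555138 of chromosome 14 (mm10, gene ENSMUSG00000064128). Cenpv, with the same pattern, was among the weakest, at folds of 7.95 and 6.66 and percentiles of 2.94 and 4.08. Cenpl and Cenpu, both of the inner kinetochore network, were present throughout at percentiles of 76.9 to 81.6 and 63.8 to 72.5. In knockout 2 the best Cenpl peak was a coding one that no other library listed, at fold 248. The Cenpu peak lies over one of Primpol on the opposite strand. A 5' untranslated site of Cenpl was listed in both knockout libraries at folds of 10.4 and 6.72, and in neither wild-type library. Cenph, Cenpn and Cenpt, of the same network, were present in 3 libraries, and the place differed for Cenpt, whose knockout 2 peak lay at the start of the gene and the others further on. Cenpo was listed in knockout 2 and wild type 1. Cenpk and Cenps were listed in wild type 1 alone, at percentiles of 6.25 and 29.2.

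Among the Nek kinases, Nek2, which separates the centrosomes at the entry into mitosis, had peaks in wild type alone. Its 3 sites, 2 in coding sequence and 1 in the 3' untranslated region, were each listed in both wild-type libraries, and none of them in a knockout library. The best one had folds of 3.91 and 8.08 at percentiles of 58.0 and 67.8, so Nek2 combined a moderate rank with a low fold. Nek6 and Nek7, close relatives that act in spindle formation, were present in all libraries. Nek6 had folds of 42.5 and 22.4 in the knockout, and 55.7 and 17.0 in wild type, and Nek7 had 25.6 and 14.9 in the knockout, and 31.8 and 8.88 in wild type. Both were highest in wild type 1 and lowest in wild type 2, so the spread within a genotype was as wide as that between genotypes. Nek4 was missing from knockout 1 and Nek9 was listed in knockout 2 and wild type 2. Nek1 was the gene of knockout 1 alone with tied weak values. Of the Plk kinases, Plk2, which acts on centrioles, was strong everywhere, with folds of 757 and 373 in the knockout, and 341 and 204 in wild type. By percentile the order was reversed, at 92.7 and 93.2 in the knockout, and 94.3 and 94.8 in wild type. Plk3, a kinase of the stress response, and Plk4, which starts centriole duplication, were listed in wild type 1 alone at percentiles of 0.885 and 23.7.

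The remaining 13 genes were kinases outside the core cycle, proteins named for a partner, the cyclin Ccng1 and the pseudogene Ccnb2-ps. Of these, 8 were in all libraries (background 57.1%), with no test. Cdk10 had the same span of 509 bp in its 3' untranslated region in each list, at folds of 204 and 111 in the knockout, and 123 and 124 in wild type. Cdkn2aip, which binds a product of Cdkn2a, had folds of 485 and 180 in the knockout, and 174 and 688 in wild type. Its relative Cdkn2aipnl was also strong throughout, at percentiles of 82.3 to 85.7. Cdk15 had folds of 159 and 166 in the knockout, and 68.7 and 156 in wild type. Ccng1, a cyclin induced by p53, had 8 peaks, and its best one lay in the 3' untranslated region in knockout 1 and wild type 1 and in coding sequence in knockout 2 and wild type 2. Cdk5rap2, a protein of the centrosome, had 12 peaks, and 4 of them lie over those of the pseudogene Ywhaq-ps3 on the same strand. Cdk5r1 and Cdk5r2, activators of the neuronal kinase Cdk5, were weak to moderate, Cdk5r2 in all libraries at folds of 9.71 to 61.5 and Cdk5r1 in all but knockout 2. Cdk18, also missing from knockout 2, had 13.6 in knockout 1, and 10.1 and 8.88 in wild type. Cdk20 and Cdk5rap3 were listed in knockout 1 alone and Cdk2ap1 in wild type 1 alone, at percentiles of 12.6, 36.5 and 11.9.

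**Figure D3:**
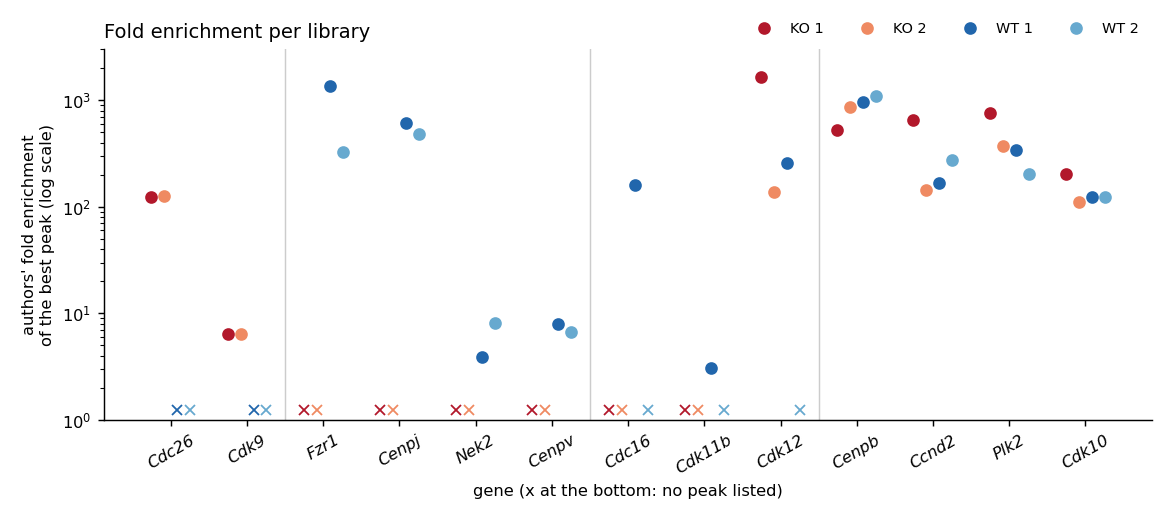
The authors' fold enrichment (log scale) of the best peak per library for the genes listed in both libraries of 1 genotype alone, for the genes Cdc16, Cdk11b and Cdk12, and for 4 strong genes present throughout; a cross at the bottom marks no listed peak. Fzr1 and Cenpj lie between 329 and 1360 in wild type with crosses in the knockout, while Cdk9 and Cenpv lie below 10.

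At the level of single sites, the genotypes were even. Joining overlapping peaks gave 100 regions with a member peak, of which 33 (33.0%) were present in all libraries, against a background of 42.5%. Both knockout libraries and neither wild-type library held 6 regions (6.00%, background 2.51%), in Ccnd1, Cdc26, Cdc6, Cdk9, Cdkn2d and Cenpl. The reverse held for 6 (6.00%, background 2.02%), in Fzr1 (added singly), Cenpj, Cenpv and, with 3 of them, Nek2. In Ccnd1, Cdc6, Cdkn2d and Cenpl the gene had stronger peaks elsewhere in all libraries, so the counts of genes do not contain them. A single library held 33 regions (33.0%, background 28.3%), 11 were in 3 libraries (background 14.2%) and 11 in 1 library of each genotype (background 10.4%).

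The peaks of these genes lay more often in the 3' untranslated region than peaks at large. That class held 58.0% and 57.1% of the member peaks in knockout 1 and 2, and 50.7% and 56.7% in wild type 1 and 2. Over all peaks of the same lists it held 38.7%, 38.2%, 38.6% and 38.4%, in the same order, and 42.6% to 43.8% over those of protein-coding genes. Coding sequence held 17.4% and 19.6% in the knockout, and 28.2% and 23.3% in wild type, against 33.7% to 36.5% of all peaks. The genotype means for the 3' untranslated region were 57.6% ± 0.586 in the knockout and 53.7% ± 4.22 in wild type (SD, n = 2 each, two-sided exact permutation p = 0.333, the smallest possible). For coding sequence they were 18.5% ± 1.59 and 25.8% ± 3.42, in the same order (p = 0.333 by the same exact test). These wild-type coding peaks include those of Cenpj, Cenpv, Nek2 and Fzr1, which was added singly. Counted by base pairs, the 3' untranslated share of the members was 53.0% and 44.4% in the knockout, and 38.2% and 39.4% in wild type, against 33.5% to 34.6% of all peaks. Genes have 1 to 15 peaks each, so the peaks of a gene are not independent.

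**Figure D4:**
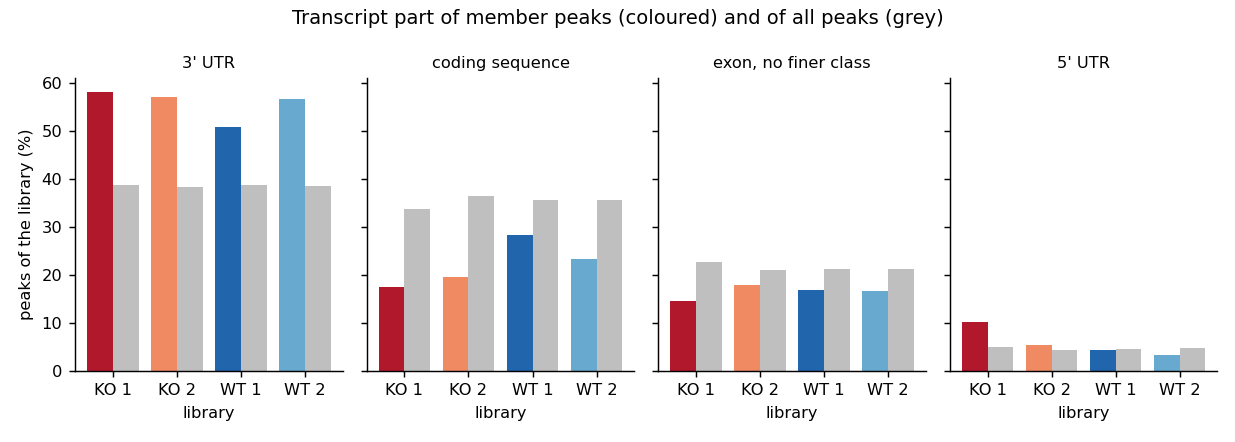
Share of peaks, in percent, by transcript part for the member peaks (coloured bars, KO 1, KO 2, WT 1 and WT 2) and for all peaks of the same library (grey). The coloured bars stand above the grey ones for the 3' untranslated region (50.7% to 58.0% against 38.2% to 38.7%) and below them for coding sequence.

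A larger share of the listed members than of all genes had a peak among the strongest 10% of every list, while their median strength and length were closer to those of all genes. The median best percentile of the listed members was 62.0 and 67.3 in knockout 1 and 2, and 60.1 and 59.3 in wild type 1 and 2, where that of all genes was 59.1 to 59.9. The strongest 10% of peaks held the best peak of 9 members in each knockout library, and of 12 and 10 in wild type 1 and 2, between 19.6% and 21.4% of those listed, against 13.8% to 14.0% of all genes. Median exonic length was 331 and 372 bp in the knockout, and 360 bp in both wild-type libraries, against 331 to 360 bp for all peaks. For the 31 genes in all libraries, the percentile of the best peak moved by a median of 10.6 points across the 4 lists, and for all 5683 such genes by 12.3 points. It moved by over 20 points in 7 of the 31, Ccnl2, Ccnt2, Cdk19, Cdk5r2, Cenpf, Nek6 and Nek7, and in 1762 of the 5683. Genes in all libraries had a median mean percentile of 70.8, those in 3 libraries 28.3 and those in 1 library 12.6, against 66.4, 32.5 and 16.8 for all genes. The 4 genes of both wild-type libraries alone went against that order, with a median of 77.3 (all genes 24.1), and the 2 of both knockout libraries alone had 39.9 (all genes 23.8). Fzr1, which was added singly, is among the 4.

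Where a region with a strong peak was missing from a library, it mostly held a peak that crosses exon junctions. Of member regions with a peak above percentile 80, 10 held a peak over several exon blocks, and 7 of these (70.0%) lacked a peak in at least 1 library, against a background of 36.9% (413 of 1118 regions). They belonged to Fzr1 (added singly), Cenpj, Cenpf, Cdc16, Cdk11b, Cdk12 and Ccnt2, whereas the regions of Cdk13, Ccnt1 and Plk2 were present throughout. The Ccnt1 region joins several peaks, and it counts as present in knockout 2 through a 3' untranslated peak. Its long coding peak, at percentiles 92.5 to 93.5, was not listed there. That peak lay within 1 exon block in knockout 1 and wild type 1, and over 2 in wild type 2. Of 12 strong member regions with peaks within 1 exon block, 1 lacked a library (8.33%, background 22.2%), the distant Cdk12 site. Over all strengths the member shares were 66.7% for several blocks and 67.1% for 1 block, against 48.3% and 58.9% for all genes. The gap between the 2 shapes seen among strong member regions was thus not there over all strengths, and neither gap was tested. The split by blocks and the percentile of 80 were chosen after the values were seen, and whether the shape of the peaks has a part in the missing calls was not tested.

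**Figure D5:**
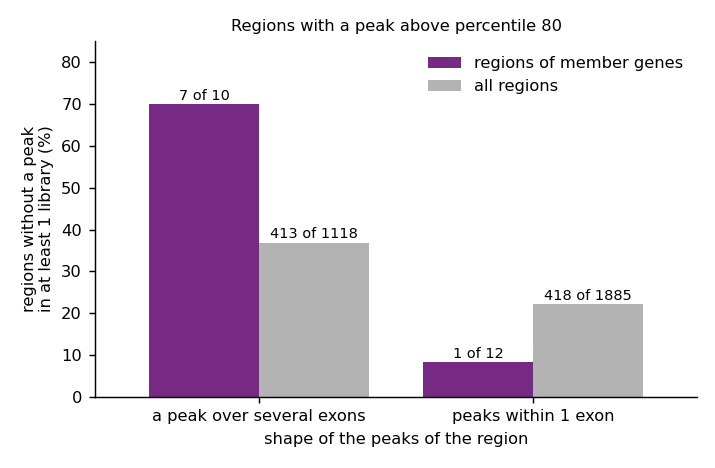
Regions with a peak above strength percentile 80 that lack a peak in at least 1 library, in percent of such regions, for member genes (purple) and all genes (grey), by whether a peak of the region spans several exon blocks. Among member genes 7 of 10 regions with a peak over several blocks lack a library, and 1 of 12 of the others.

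Further genes of the same machinery were read from 6 lists of the cell cycle, 99 genes in all, of which 98 have a symbol in the RefSeq table. A peak in any library was found for 57, and 34 of these 57 had one in all 4 libraries, a share near the 57.1% of all genes with a peak. E2f8, a repressor of the E2f family, was listed in both knockout libraries alone, at folds of 67 and 29.9 and percentiles of 81.2 and 41.1. The background of 57.1% counts genes with a peak only, so genes of a list without a peak have no part in it. Of 13 genes of the anaphase-promoting complex outside the members, 6 had a peak and 7 had none. Of the 6, 3 were in all libraries (Anapc15, Anapc2 and the inhibitor Fbxo5) and 1 in a single library (Ube2s). Anapc1, the largest scaffold subunit, had folds of 492 and 263 in the knockout and 1020 in wild type 2, with no peak in wild type 1. Of 19 genes of the spindle checkpoint and the chromosome passenger complex, 11 had a peak and 8 had none. Of the 11, 6 were in all libraries, among them Aurka, Birc5, Knl1 and Mad2l1. Birc5 (survivin), a passenger subunit, had folds of 79.8 and 119 in the knockout, and 153 and 67.9 in wild type. Of 15 outer kinetochore genes 8 had a peak, and 5 were in all libraries, among them Dsn1, Hjurp, Nsl1 and Ska3. The Rb and E2f list of 20 had 14 with a peak and 9 in all libraries, among them Cks1b, E2f2, E2f3 and E2f7. The checkpoint list of 12, kinases and other proteins, had 7 with a peak and 5 in all libraries, among them Atr, Atrip, Mdm2 and Topbp1. Of 20 replication licensing genes 11 had a peak, and 6 were in all libraries, among them Cdt1, Gins2, Gins4 and Mcm3.

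Many genes with these names had no listed peak. The RefSeq table holds 111 protein-coding symbols that meet the naming rule, and 66 of them (59.5%) had a peak in at least 1 library, against 37.7% of all 21900 protein-coding symbols. Which of these symbols are expressed in the cells is unknown here, and the reason for the gap was not tested. The 45 without a peak include regulators of mitosis, Plk1, Ccnb1, Cdc25a and Cdc25b, the centromeric histone Cenpa, Cdk7, Cdk8 and the inhibitors Cdkn1c and Cdkn2a. By name, 18 of 26 Cdk, 7 of 10 Cdkn, 13 of 21 Cenp, 9 of 16 Ccn, 6 of 11 Nek, 3 of 5 Plk and 9 of 21 Cdc symbols had a peak.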

How the data were processed

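Peak lists of 4 MeRIP-seq libraries were used. Per the labels' protocols, fragmented total RNA was precipitated with an m6A antibody. HISAT2, HOMER and the build mm10 are named, without roles, in the submitters' processing notes; the sources used here do not give the peak caller. The authors deposited 1 list per library. The deposited p-value and fold enrichment (a ratio to a background the lists do not name) are the authors' own for each peak. The deposited log10 p-values and adjusted values, taken as a score, run to minus infinity; p-values were ranked within a list, with those values tied at the top.

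Left out were peaks on sequences other than the assembled chromosomes (6, 3, 3 and 5 in knockout 1, knockout 2, wild type 1 and wild type 2), none of them a member's. Peaks whose exon blocks shared at least 1 bp, irrespective of strand, formed a region. The strand of the reads is not stated: 20 of the 256 member peaks, in Ccnt1, Cdc23, Cdk4 and Cenpu, overlap a peak on the opposite strand. Groups follow the genotype label. With 2 libraries per genotype, counts carry no test, and single values have a two-sided exact permutation test. Members and lists were chosen with earlier results of these data known. Named genes were those listed in 1 genotype alone or in 1 library, the strongest, those with most peaks, and further members by role; list genes were taken in alphabetical order. The counting was tested on simulated lists. Alternatives were an adjusted p-value under 0.05, lists of equal length, the stronger 50% of each list, regions in place of genes, a reciprocal overlap of 50%, rank by fold, base pairs, and leaving out each library. Python 3.11.15, numpy 2.4.6, pandas 2.3.3, scipy 1.17.1 and matplotlib 3.10.9 were used.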

Additional observations from a re-analysis of the deposited data

How the results depend on the processing

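An adjusted p-value under 0.05 changed no member count, and lists of equal length changed none beyond 1.5 times, though Cenpt took the place of Cdk9 among the knockout-only genes and Ccne2 that of Cenpv among the wild-type-only genes. The stronger 50% of each list left 19 members in all libraries, gave a median percentile of 80.6 where all peaks gave 62.2, and a 3' untranslated share of 63.4% where all peaks gave 55.6% (means of 4 libraries), as fewer and stronger peaks were kept, and left a difference of -1 member genes per library, which was computed after seeing the data. In the stronger 50%, Ccnt2 took the place of Cdk9 among the knockout-only genes. Cenpv was lost from the wild-type-only genes, which left 3. Regions in place of genes gave 6 knockout-only cases, as did a reciprocal overlap of 50%, because a gene can hold several regions. By base pairs the 3' untranslated share was 43.8%, and the cause was not tested. With each library left out in turn, 2 to 7 genes were knockout-only, 4 to 14 wild-type-only and 32 to 37 in all libraries used. Such counts can only stay or rise when a library is left out. The median percentile was 60.5 to 63.2, the 3' untranslated share 54.8% to 57.3% and the difference -12.0 to -3.00 member genes. No paired analysis was possible because replicate numbers are absent from the wild-type labels, and the results are counts and not model fits. Without depths, peaks lost to few reads cannot be told from absent ones.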
